A study of Mus musculus with 8 samples.

Results

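The genes described here are 7 members of the Sox family of transcription factors, Sox2, Sox4, Sox7, Sox9, Sox11, Sox17 and Sox18, out of 55421 genes in the count table. They were chosen by symbol. Sox7 was selected on its lower count after NRRA in these same libraries, and the others were set beside it as its nearest relatives and as members of other Sox subgroups. The NRRA values of all members, and every difference of Sox7, are therefore given as a description, without a test. For the other members, tests are given between the genotypes and for the interaction, which uses the same NRRA libraries. Genes that are not members are also tested in NRRA against Veh. Their lists were chosen with earlier results of these data known, so those tests are not independent of the choice.

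Poly(A) RNA was sequenced from primary cultures of mouse spermatogonia (SSC culture), which were derived from testes of neonatal pups of the C57BL/6XDBA/2 background and were grown on irradiated CF1 mouse embryonic fibroblasts with N2, bFGF and GDNF. The 4 groups were Stra8KO and Spo11KO cultures, each given vehicle (Veh) or NRRA, a medium low in nutrients to which retinoic acid is added, with 2 libraries per group and 8 in all. Both genotypes are knockouts, so that no group carried intact copies of both genes, and wild-type cultures were not analysed here. Germ cells and feeder cells were lysed together, so a count belongs to the mixture, and fewer cells of a type cannot be told apart from less RNA per cell. The study describes the replicates of its sequencing experiments as independent and biological, and a genotype difference below is one between these 2 sets of cultures.

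Sox proteins share the HMG box, a DNA-binding domain that bends the minor groove and was first recognised in the testis-determining gene Sry. The family is divided by the similarity of this box. Sox2 belongs to SoxB1 and maintains pluripotent and neural progenitor cells. Sox4 and Sox11 belong to SoxC and act in progenitors of neurons, lymphocytes and mesenchyme. Sox9 belongs to SoxE and drives cartilage formation and Sertoli cell differentiation. Sox7, Sox17 and Sox18 form SoxF, which specifies endothelium, and of which Sox7 and Sox17 also mark early endoderm. Retinoic acid acts through nuclear receptors that bind repeats of a half-site, and it starts spermatogonial differentiation in the testis.

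The sequences below are shown because the subgroups, by which the values are ordered, rest on the likeness of this box. Each is the 60-base stretch of coding exon that opens the conserved core of the HMG box, read from the GENCODE transcript of the gene. Capitals mark the 25 positions that hold the same base in all 7 members.

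Sox7: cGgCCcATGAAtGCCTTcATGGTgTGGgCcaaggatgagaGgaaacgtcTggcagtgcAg
Sox17: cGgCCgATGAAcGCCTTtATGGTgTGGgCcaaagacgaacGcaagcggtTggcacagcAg
Sox18: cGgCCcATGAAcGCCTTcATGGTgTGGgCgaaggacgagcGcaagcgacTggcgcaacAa
Sox9: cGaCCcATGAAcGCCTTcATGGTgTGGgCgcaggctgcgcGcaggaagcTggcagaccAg
Sox2: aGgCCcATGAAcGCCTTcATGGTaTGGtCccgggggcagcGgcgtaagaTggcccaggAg
Sox4: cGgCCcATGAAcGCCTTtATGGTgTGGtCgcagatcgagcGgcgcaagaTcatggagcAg
Sox11: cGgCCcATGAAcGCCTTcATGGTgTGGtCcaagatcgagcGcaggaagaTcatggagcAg

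These windows lie, on GRCm38, at chr14:63943894-63943953 (plus strand) for Sox7, chr1:4493140-4493199 (minus strand) for Sox17 and chr2:181671222-181671281 (minus strand) for Sox18. The Sox9 window is at chr11:112782903-112782962 and the Sox2 window at chr3:34650548-34650607, both on the plus strand. The Sox4 window is at chr13:28952782-28952841 and the Sox11 window at chr12:27342199-27342258, both on the minus strand. Over the 237 bases of the whole box, Sox4 and Sox11 were 89.5% identical, which was the closest pair. Sox17 was 82.3% identical to Sox18 and 79.7% to Sox7, and Sox7 was 76.8% identical to Sox18. Sox7 was 65.0% identical to Sox2, 65.8% to Sox4 and 73.8% to Sox9. Over the 79 encoded residues, Sox7 was 89.9% identical to Sox17 and 81.0% to Sox18. By residue it was 55.7% identical to Sox2, 62.0% to Sox4 and 63.3% to Sox9. The longest run that Sox4 and Sox11 shared was 48 bases, and Sox7 and Sox17 shared 22 bases, in each case shorter than a sequenced read.

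The genes themselves are compact. Sox2 (ENSMUSG00000074637, chr3:34650405-34652461), Sox4 (ENSMUSG00000076431, chr13:28948919-28953713) and Sox11 (ENSMUSG00000063632, chr12:27334264-27342574) have 1 exon each. Sox7 (ENSMUSG00000063060, chr14:63943673-63950732) and Sox18 (ENSMUSG00000046470, chr2:181669836-181671640) have 2 exons, Sox9 (ENSMUSG00000000567, chr11:112782224-112787760) has 3, and the longest transcript of Sox17 (ENSMUSG00000025902, chr1:4490931-4497354) has 4. The antisense gene Gm26735 covers 54.6% of the exon bases of Sox4, and Gm37587 covers 16.8% of those of Sox17. The libraries were strand-selected, but the strand setting of the counting is not given in the sources used here, so reads of such a pair might not have been separated. Sox2 lies in an intron of the noncoding gene Sox2ot on the same strand and shares none of its exon bases.

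The targeted genes were examined to check the labels. Stra8, which acts downstream of retinoic acid in meiotic entry, was at 0.0894 and 0 CPM (counts per 1e+06 after TMM scaling of the library) in Stra8KO with Veh, and at 8.16 and 7.85 CPM with NRRA. In libraries labelled Spo11KO, it was at 1.18 and 0.522 CPM with Veh, and at 486 and 552 CPM with NRRA. Spo11, which encodes the meiotic DNA break enzyme, was no lower in libraries labelled Spo11KO than in the others. Stra8KO had 1.43 and 1.56 CPM with Veh, and 3.28 and 3.05 CPM with NRRA. Cultures labelled Spo11KO had 3.03 and 3.26 CPM with Veh, and 5.71 and 4.33 CPM with NRRA. Gene counts do not show which exons were read, and the second genotype is called "labelled Spo11KO" below.

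Library totals ran from 20960794 to 27038868 counts. At these depths, 3 counts, taken as the floor, correspond to between 0.102 and 0.151 CPM. Of the 7 members, 6 had enough counts to be tested among 20588 genes. Sox17 had 1 count in 1 Spo11KO Veh library, 2 counts in 1 Spo11KO NRRA library and none in the other 6 libraries. Its level was thus at or under the floor in every group, and no fold change is given for it.

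Sox4 was by far the most abundant member. Between genes, levels are compared per kilobase of merged exon (CPM per kb). On this scale, Sox4 stood in Stra8KO at 60.3 ± 1.92 with Veh and 61.9 ± 3.35 with NRRA, and in cultures labelled Spo11KO at 63.6 ± 0.898 with Veh and 48.3 ± 0.0216 with NRRA (CPM per kb, SD, n = 2). The order below Sox4 changed with the group. In Stra8KO Veh, Sox9 (9.16 ± 0.894), Sox7 (8.81 ± 0.0673), Sox11 (4.77 ± 0.124), Sox2 (2.11 ± 0.372) and Sox18 (0.44 ± 0.0369) followed (CPM per kb, SD, n = 2), and the libraries of Sox9 and Sox7 overlapped. In Stra8KO NRRA, Sox2 was second at 7.02 ± 0.319, Sox9 (3.76 ± 0.0139) and Sox11 (3.56 ± 0.213) differed by less than the SD of Sox11, and Sox7 was at 0.401 ± 0.0329, above only Sox18 at 0.145 ± 0.0366 and Sox17 (CPM per kb, SD, n = 2).

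The order differed again in cultures labelled Spo11KO. In Veh, Sox9 was at 7.27 ± 0.505, Sox11 at 4.28 ± 0.157 and Sox7 at 2.54 ± 0.306, and Sox2 (1.32 ± 0.0136) and Sox18 (1.31 ± 0.213) overlapped (CPM per kb, SD, n = 2). In NRRA, Sox11 was second at 4.47 ± 0.269, followed by Sox9 at 2.50 ± 0.154, Sox18 at 0.578 ± 0.193, Sox2 at 0.229 ± 0.00502 and Sox7 at 0.186 ± 0.0149 (CPM per kb, SD, n = 2). Sox7 thus ranked with Sox9 in Stra8KO Veh, between Sox11 and Sox2 in Spo11KO Veh, and near the bottom in both NRRA groups.

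**Figure D1:**
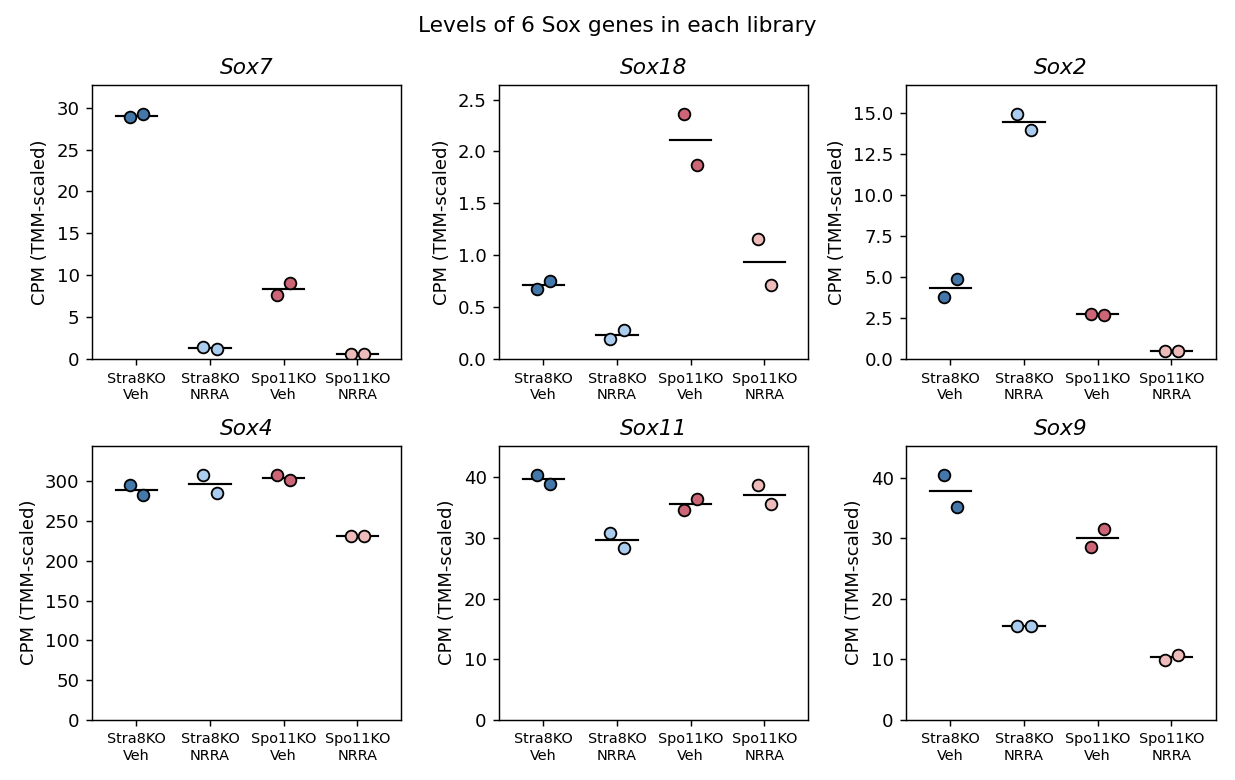
Levels of the 6 tested members in each library, as CPM after TMM scaling on linear axes that start at 0, with 1 point per library, a bar at the mean of the 2 libraries, and the 4 groups on the horizontal axis. The Sox7 points go from 28.9 and 29.2 CPM in Stra8KO Veh to near 0 in both NRRA groups, whereas the Sox2 points are highest in Stra8KO NRRA, and the Sox4 points sit between 231 and 308 CPM throughout.

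Within SoxF, Sox7 had the highest level per kilobase in every group but Spo11KO NRRA, where Sox18 stood above it. In Stra8KO, its level was 28.9 and 29.2 CPM with Veh, and 1.40 and 1.25 CPM with NRRA. In cultures labelled Spo11KO, it was 7.66 and 9.09 CPM with Veh, and 0.579 and 0.648 CPM with NRRA. The groups fell in the order Stra8KO Veh, Spo11KO Veh, Stra8KO NRRA and Spo11KO NRRA, and no group overlapped its neighbour. The fitted NRRA difference was -4.45 (log2, SE 0.151), or 21.9-fold lower, in Stra8KO. It was -3.75 (log2, SE 0.214), or 13.5-fold lower, in cultures labelled Spo11KO. These are the values on which Sox7 was chosen. The NRRA difference in Stra8KO minus that in the other genotype was -0.70 (log2, SE 0.379), and after NRRA the level was 2.14-fold higher in Stra8KO (log2 1.10, SE 0.345), both also given without a test.

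In Veh, Sox7 stood higher in Stra8KO by 1.79 (log2, SE 0.10), or 3.47-fold. This is given without a test too, since the Stra8KO Veh libraries entered the choice of Sox7. Both Stra8KO libraries lay above both libraries labelled Spo11KO. In the same comparison of Veh libraries, all 16 fibroblast markers were higher in Stra8KO and all 8 germ cell markers lower. The shares among all tested genes were 31.5% called higher and 30.7% called lower. The summed fibroblast markers were at 26180 to 26690 CPM in Stra8KO Veh and 13770 to 13880 CPM in Spo11KO Veh. The summed germ cell markers were at 698.6 to 702.1 CPM and 1422 to 1470 CPM. With NRRA, the fibroblast sum was at 40190 to 40710 CPM in Stra8KO and 20510 to 21180 CPM in cultures labelled Spo11KO, above the Veh libraries. The direction of this sum rested on the collagen genes Col1a1, Col1a2 and Col3a1. Without them, the other 13 markers summed to 17670 to 17810 CPM with Veh and 15660 to 15820 CPM with NRRA in Stra8KO, and to 8898 to 9190 CPM and 8085 to 8190 CPM in the other genotype. The part of the cell mixture in the Sox7 differences was not tested.

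Sox18, which acts in blood and lymphatic vessels, was present at a low level. In Stra8KO it had 15 and 15 counts (0.671 and 0.755 CPM) with Veh, and 4 and 6 counts (0.193 and 0.277 CPM) with NRRA. In cultures labelled Spo11KO it had 56 and 43 counts (2.36 and 1.87 CPM) with Veh, and 30 and 21 counts (1.16 and 0.716 CPM) with NRRA. Like Sox7, it was lower in NRRA than in Veh in each genotype without overlap, by -1.57 (log2, SE 0.573) in Stra8KO and -1.19 (log2, SE 0.288) in cultures labelled Spo11KO. Its genotype difference had the other sign than that of Sox7. In Veh, Sox18 was 2.97-fold lower in Stra8KO (log2 -1.57, SE 0.331, edgeR adjusted p 7.47e-05), and after NRRA it was 3.85-fold lower (log2 -1.95, SE 0.512, edgeR adjusted p 0.00105). No difference of the NRRA effect between the genotypes was detected for Sox18 (log2 -0.38, SE 0.653, edgeR adjusted p 0.749), at counts that leave a wide error. The Spo11KO NRRA and Stra8KO Veh libraries overlapped.

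Because SoxF is known from endothelium and early endoderm, markers of both were counted in the same libraries. Of 13 endothelial markers, 10 were tested. In Stra8KO, 4 were higher and 3 lower in NRRA, and in cultures labelled Spo11KO 3 were higher and 2 lower. Among all tested genes, 21.4% were called higher and 20.1% lower in Stra8KO, and 24.7% and 25.5% in the other genotype. The ETS factor gene Erg rose by 2.82 (log2, SE 0.0829, edgeR adjusted p 1.6e-28) in Stra8KO, and Vwf, the von Willebrand factor gene, rose by 1.65 (log2, SE 0.207, edgeR adjusted p 8.94e-09). Cdh5, the endothelial cadherin, fell by 2.17 (log2, SE 0.227, edgeR adjusted p 1.06e-10). The list thus did not move in 1 direction, and its summed level was between 153.2 and 197.5 CPM over all libraries, with no marker at 0 throughout. Flt1 was the largest part of the sum in every group. Its mean went from 140.5 to 106.6 CPM in Stra8KO and from 118.8 to 69.1 CPM in the other genotype. Erg went from 8.67 to 61.3 CPM and from 10.5 to 63.9 CPM, so the sum joins opposite changes and does not describe the list.

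Of 12 endoderm genes, 10 were tested, and 4 were higher and 2 lower in NRRA in each genotype. The shares of all tested genes were 21.4% higher and 20.1% lower in Stra8KO, and 24.7% and 25.5% in the other genotype. Foxa2, a forkhead factor of endoderm, fell by 1.07 (log2, SE 0.137, edgeR adjusted p 1.66e-08) in Stra8KO. The laminin chain gene Lama1 rose by 1.03 (log2, SE 0.151, edgeR adjusted p 3.01e-07) in Stra8KO, and Sparc, a matrix protein gene that fibroblasts also express strongly, rose by 0.72 (log2, SE 0.0308, edgeR adjusted p 8.66e-23). In cultures labelled Spo11KO, Foxa2 was at -3.88 (log2, SE 0.149, edgeR adjusted p 1.67e-24), Lama1 at -0.07 (log2, SE 0.143, edgeR adjusted p 0.701) and Sparc at 0.76 (log2, SE 0.0311, edgeR adjusted p 1.67e-23). Ttr had at most 3 counts in every library. The median log2 difference in NRRA was 0.182 over the endoderm list and 0.883 over the endothelial list in Stra8KO, and 0.058 and -0.165 in cultures labelled Spo11KO, beside 0.0135 and 0.0129 over all tested genes.

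Sox9, the SoxE member, was lower in NRRA than in Veh in each genotype. In Stra8KO it was at 40.5 and 35.2 CPM with Veh, and at 15.6 and 15.5 CPM with NRRA. In cultures labelled Spo11KO it was at 28.6 and 31.5 CPM with Veh, and at 9.88 and 10.8 CPM with NRRA. The order of the groups was that of Sox7, again with no overlap. The NRRA difference was -1.29 (log2, SE 0.086), or 2.44-fold lower, in Stra8KO and -1.54 (log2, SE 0.0898), or 2.90-fold lower, in cultures labelled Spo11KO. The 2 differences did not differ detectably (interaction 0.25, SE 0.128, edgeR adjusted p 0.163). Sox9 was higher in Stra8KO in Veh by 0.34 (log2, SE 0.0756, edgeR adjusted p 0.000174) and in NRRA by 0.59 (log2, SE 0.103, edgeR adjusted p 3.94e-06), and these differences had the sign of the fibroblast markers.

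Across the 8 libraries, the centred log2 CPM of Sox9 followed that of Sox7 with a Pearson r of 0.981, as a description over 8 points that form 4 groups. Of 12 cartilage genes, which include known targets of Sox9, 8 were tested. Hapln1, a cartilage link protein gene, fell by 2.11 (log2, SE 0.362, edgeR adjusted p 5.45e-06) in Stra8KO NRRA, whereas Col9a2 rose by 1.48 (log2, SE 0.52, edgeR adjusted p 0.0198) and the aggrecan gene Acan by 0.66 (log2, SE 0.159, edgeR adjusted p 0.000743). In all, 2 were higher and 2 lower in Stra8KO, and in the other genotype 3 were higher and 2 lower, with medians of 0.056 and -0.00359 (log2). The shares of all tested genes were 21.4% higher and 20.1% lower in Stra8KO, and 24.7% and 25.5% in the other genotype. The summed cartilage genes made up between 0.00386% and 0.00623% of a library's counts.

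Of 10 Sertoli cell markers, only 4 had enough counts to be tested, and Fshr and Ptgds had at most 3 counts in every library. In Stra8KO NRRA, 1 was higher and 1 lower, where 21.4% of all tested genes were called higher and 20.1% lower. Wt1 rose by 1.64 (log2, SE 0.144, edgeR adjusted p 8.23e-13) and Aard fell by 1.90 (log2, SE 0.422, edgeR adjusted p 0.000264). None of the 4 passed the edgeR test in cultures labelled Spo11KO. The summed Sertoli cell markers lay between 7.005 and 19.43 CPM over all libraries and were highest in Stra8KO NRRA, which rested on Wt1. Without Wt1 the sum was highest in Stra8KO Veh, at 8.095 to 8.157 CPM, against 6.323 to 7.385 CPM in Stra8KO NRRA, and in the other genotype it was 3.133 to 5.222 CPM with Veh and 5.055 to 6.585 CPM with NRRA. The part of Sertoli cells in the Sox9 values was not tested.

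Of the 6 tested members, Sox2 had the largest difference between its NRRA values in the 2 genotypes. In Stra8KO it was at 3.80 and 4.88 CPM with Veh, and at 14.9 and 14.0 CPM with NRRA. Cultures labelled Spo11KO had it at 2.74 and 2.70 CPM with Veh, and at 0.463 and 0.478 CPM, or 12 and 14 counts, with NRRA. No groups overlapped. The fitted NRRA difference was 1.74 (log2, SE 0.138), or 3.34-fold higher, in Stra8KO and -2.52 (log2, SE 0.308), or 5.72-fold lower, in cultures labelled Spo11KO. The difference of these differences was 4.26 (log2, SE 0.332) with an edgeR adjusted p of 1.36e-13. In Veh, Sox2 was 1.59-fold higher in Stra8KO (log2 0.67, SE 0.196, edgeR adjusted p 0.00324), a call that was lost without Stra8KO Veh replicate 2 (log2 0.48, edgeR adjusted p 0.0862). After NRRA it was 30.3-fold higher in Stra8KO (log2 4.92, SE 0.207, edgeR adjusted p 3.86e-23).

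The start of Sox2 is shown because retinoic acid was part of the treatment and Sox2 is the tested member whose NRRA difference differed most between the genotypes. RefSeq promoter sequences (GRCm38.p6) were matched for 3 of the 7 members, Sox2, Sox4 and Sox11. The stretch below is the 250 bases before the RefSeq start of Sox2, chr3:34649745-34649994 on the plus strand, which lies upstream of the GENCODE start. Capitals mark TGACCT, which is the retinoid receptor half-site AGGTCA read on the other strand, and ACAAAG, a core motif bound by Sox proteins.

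Sox2 promoter: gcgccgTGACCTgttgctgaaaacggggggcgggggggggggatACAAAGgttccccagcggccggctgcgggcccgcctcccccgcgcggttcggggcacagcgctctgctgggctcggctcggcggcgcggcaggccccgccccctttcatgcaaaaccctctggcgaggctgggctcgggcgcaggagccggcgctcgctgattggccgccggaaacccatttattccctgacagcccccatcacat

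The letters AGGTCA occurred once on either strand in the same window of Sox2 and of Sox4, and not in that of Sox11. Of 32851 mouse promoters of this length, 14.0% held AGGTCA, 16.5% held ACAAAG and 27.7% held ACAAT, another Sox core, which was in none of the 3 windows. These matches are descriptions of letters and were not tested as binding sites.

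Of 8 pluripotency genes, which Sox2 serves in embryonic stem cells, 6 were tested. In Stra8KO NRRA, 4 were higher and 1 lower, where 21.4% of all tested genes were called higher and 20.1% lower. Utf1 rose 6.06-fold (SE 0.156 on the log2 scale, edgeR adjusted p 7.25e-18), Esrrb rose by 1.89 (log2, SE 0.183, edgeR adjusted p 1.35e-11) and Klf2 fell by 1.09 (log2, SE 0.109, edgeR adjusted p 3e-11). None was higher and 2 were lower in cultures labelled Spo11KO, with Utf1 at -0.01 (log2, SE 0.121, edgeR adjusted p 0.952). The shares of all tested genes there were 24.7% higher and 25.5% lower. The NRRA effect was more positive in Stra8KO for 5 of the 6 and lower for none, where 14.6% of all tested genes were called in the first direction and 10.1% in the second. Between the genotypes in Veh, all 6 were lower in Stra8KO, with a median of -1.26 (log2), whereas Sox2 was at 0.67. In that comparison 31.5% of all tested genes were called higher and 30.7% lower. After NRRA, 2 of the 6 were higher in Stra8KO and 1 lower, with a median of 0.03 (log2), beside 4.92 for Sox2. The shares of all tested genes were 35.2% higher and 29.1% lower. The noncoding host Sox2ot, named because it surrounds Sox2, had 9 and 1 counts in Stra8KO with Veh, 12 and 26 with NRRA, and at most 4 in any library labelled Spo11KO.

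Sox2, Sox4 and Sox11 also act in neural cells, for which 8 neuron genes were counted and 7 tested. This list was chosen with earlier results of these data known, and the genes named from it are the called ones with the largest changes in Stra8KO. In NRRA, 1 was higher and 3 lower in Stra8KO, whereas 3 were higher and 3 lower in the other genotype. The shares of all tested genes were 21.4% higher and 20.1% lower in Stra8KO, and 24.7% and 25.5% in the other genotype. In Stra8KO the neurofilament genes fell, Nefm with a log2 difference of -2.30 (SE 0.0611, edgeR adjusted p 4.68e-30) and Nefl with -2.21 (SE 0.219, edgeR adjusted p 2.54e-11). The RNA-binding protein gene Elavl3 rose by 1.57 (log2, SE 0.291, edgeR adjusted p 1.96e-05). Summed, the list was at 125.8 to 127.6 CPM in Stra8KO with Veh and 44.31 to 45.37 CPM with NRRA, and in cultures labelled Spo11KO at 239.2 to 243.2 CPM with Veh and 32.14 to 33.64 CPM with NRRA. Most of each Veh sum was Nefm, at a mean of 97.4 CPM in Stra8KO and 218 CPM in cultures labelled Spo11KO. With NRRA, Nefm was at 19.8 and 4.15 CPM, so the fall of the sum rested largely on this gene and does not describe the list.

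Of the SoxC genes, the members Sox4 and Sox11 differed little between the media, and Sox12 is described below with the rest of the family. In Stra8KO, Sox4 was at 296 and 283 CPM with Veh, and at 308 and 285 CPM with NRRA. In cultures labelled Spo11KO it was at 308 and 302 CPM with Veh, and at 231 and 232 CPM with NRRA. Only the Spo11KO NRRA libraries stood apart, below all others. The NRRA difference was 0.04 (log2, SE 0.0399) in Stra8KO, and -0.40 (log2, SE 0.0397), or 1.32-fold lower, in cultures labelled Spo11KO. These differed by 0.43 (log2, SE 0.0563, edgeR adjusted p 6.83e-08). No difference between the genotypes was detected in Veh (log2 -0.08, SE 0.0397, edgeR adjusted p 0.098), although total counts in place of TMM gave -0.19 (edgeR adjusted p 4.94e-05). After NRRA, Sox4 was 1.28-fold higher in Stra8KO (log2 0.36, SE 0.0399, edgeR adjusted p 2.41e-10).

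Sox11, with the HMG box closest to that of Sox4, had the other pattern. In Stra8KO it was at 40.4 and 38.9 CPM with Veh, and at 30.8 and 28.3 CPM with NRRA. Cultures labelled Spo11KO had it at 34.6 and 36.5 CPM with Veh, and at 38.7 and 35.6 CPM with NRRA. The 2 groups labelled Spo11KO overlapped, and Stra8KO NRRA lay below all others. The NRRA difference was -0.42 (log2, SE 0.0715), or 1.34-fold lower, in Stra8KO and 0.06 (log2, SE 0.0668) in cultures labelled Spo11KO, and these differed by -0.49 (log2, SE 0.0979, edgeR adjusted p 0.000158). In Veh, Sox11 was higher in Stra8KO by 0.16 (log2, SE 0.0686, edgeR adjusted p 0.0417). This call did not hold with total counts (log2 0.05, adjusted p 0.581), with the DESeq2 Wald test (log2 0.17, adjusted p 0.101), with no filter on low counts (log2 0.17, adjusted p 0.0504), or in 3 of the 8 edgeR fits that left out 1 library (adjusted p 0.217 without Stra8KO Veh replicate 1, 0.0703 without Stra8KO Veh replicate 2 and 0.219 without Spo11KO Veh replicate 1). After NRRA it was 1.25-fold lower in Stra8KO (log2 -0.33, SE 0.0698, edgeR adjusted p 8.07e-05).

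**Figure D2:**
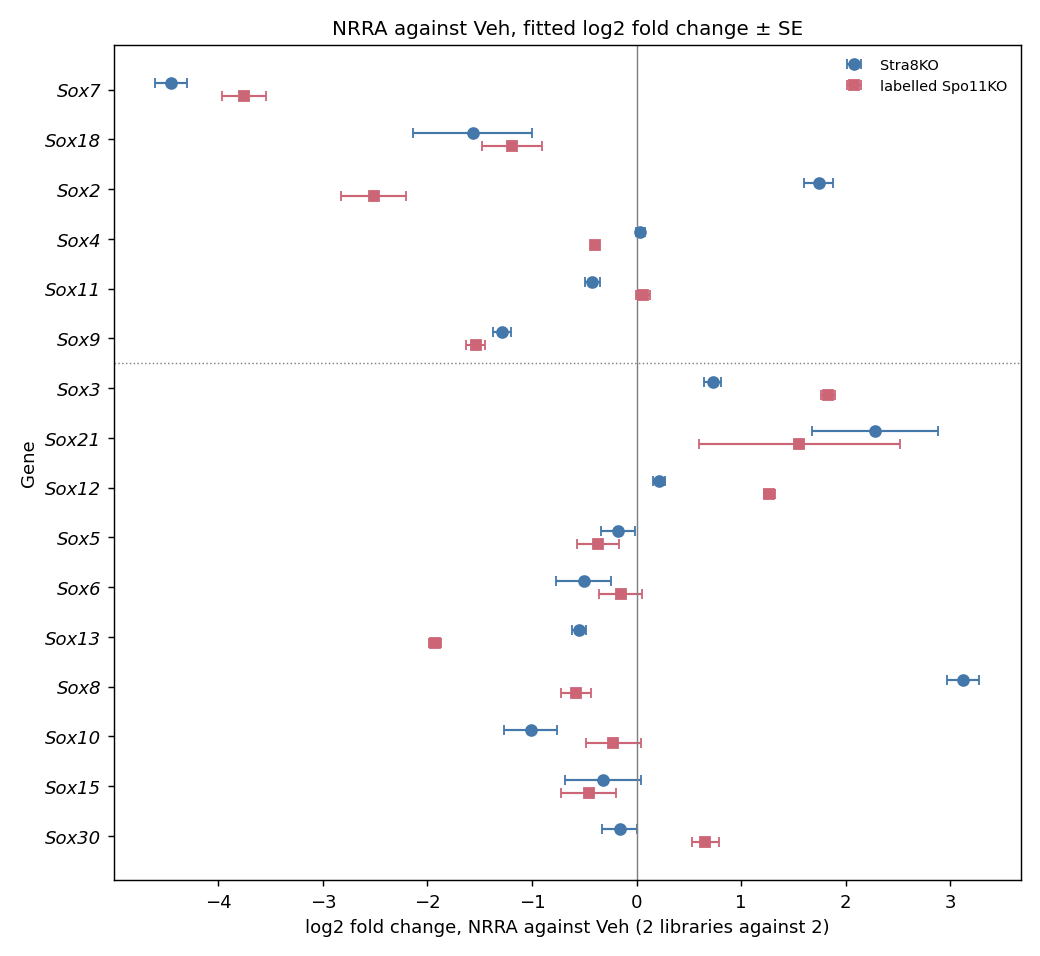
Fitted log2 fold change of NRRA against Veh with its SE (horizontal axis) for the 6 tested members, above the dotted line, and for 10 other Sox genes, below it (vertical axis), as circles for Stra8KO and squares for cultures labelled Spo11KO. Sox7 lies farthest to the left in both genotypes, at -4.45 and -3.75, and the circle and square of Sox2 lie on opposite sides of 0, at 1.74 and -2.52.

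In NRRA against Veh, 21.4% of all tested genes were called higher and 20.1% lower at an adjusted p under 0.05 in Stra8KO, and 24.7% higher and 25.5% lower in cultures labelled Spo11KO. Calls of the members are not counted in these comparisons. Of the 5 tested members besides Sox7, 2 had a fitted value above 0 and 3 below it in Stra8KO, and 1 and 4 in the other genotype. Scaling by total counts took the share of upward calls among all genes from 49.2% to 61.8% in cultures labelled Spo11KO.

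Between the genotypes in Veh, 3 of the 5 members besides Sox7 were called higher in Stra8KO and 1 lower, where 31.5% of all tested genes were called higher and 30.7% lower. After NRRA, 3 were called higher and 2 lower, where 35.2% of all tested genes were called higher and 29.1% lower. For the interaction, 2 members were called with a more positive NRRA effect in Stra8KO and 1 with a lower one, where 14.6% of all tested genes were called in the first direction and 10.1% in the second. Scaling by total counts took that share from 54.7% to 39.5% after NRRA and from 59.2% to 38.7% for the interaction, and moved the median log2 difference of all genes between the genotypes by -0.11 in Veh and -0.21 in NRRA. The 6 members kept their sign in these comparisons under both other scalings.

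**Figure D3:**
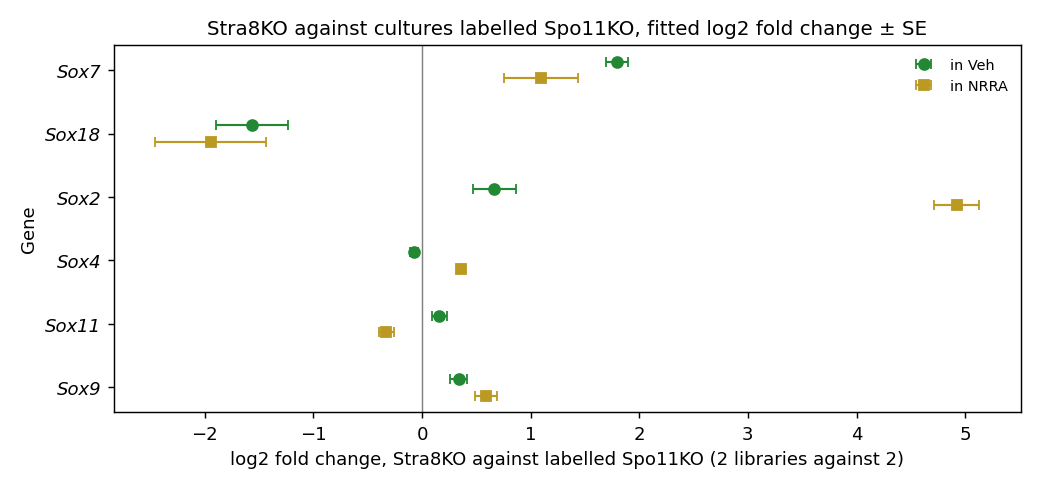
Fitted log2 fold change of Stra8KO against cultures labelled Spo11KO with its SE (horizontal axis) for the 6 tested members (vertical axis), as circles for Veh and squares for NRRA. Sox18 lies to the left of 0 in both media, at -1.57 and -1.95, Sox7 to the right, at 1.79 and 1.10, and the square of Sox2 stands farthest from 0, at 4.92.

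The rest of the family was counted in the same libraries. Of 13 further genes, 10 were tested, Sry had no count in any library, and Sox1 and Sox14 had at most 5 counts in any library. In Stra8KO NRRA, Sox3, Sox8 and Sox12 were called higher and 2 genes lower, where 21.4% of all tested genes were called higher and 20.1% lower. Sox21 is left out of these calls, since it passed the filter on low counts only through that group. In the other genotype, 3 were higher and 2 lower, where the shares of all tested genes were 24.7% and 25.5%. The median log2 difference over the 10 tested genes, with Sox21 included, was -0.169 in Stra8KO and -0.187 in the other genotype.

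Sox8, the SoxE relative of Sox9, rose in Stra8KO and fell in the other genotype. It went from 1.83 and 2.37 CPM to 17.8 and 18.6 CPM in Stra8KO, and from 7.29 and 6.70 CPM to 5.02 and 4.37 CPM in cultures labelled Spo11KO. The changes were 3.12 (log2, SE 0.153, edgeR adjusted p 8.45e-21) and -0.58 (log2, SE 0.144, edgeR adjusted p 0.000759), and they differed by 3.71 (log2, SE 0.219, edgeR adjusted p 2.63e-17). The third SoxE gene, Sox10, a neural crest factor, fell by 1.01 in Stra8KO (log2, SE 0.251, edgeR adjusted p 0.000956) and was at -0.22 in cultures labelled Spo11KO (log2, SE 0.263, edgeR adjusted p 0.513). The 3 SoxE genes thus had NRRA values of unlike sign in Stra8KO.

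The SoxB1 gene Sox3, which serves spermatogonial differentiation, rose in both genotypes. It went from 15.4 and 17.3 CPM to 26.9 and 27.1 CPM in Stra8KO (log2 0.73, SE 0.0839, edgeR adjusted p 1.32e-09), and from 26.7 and 23.6 CPM to 91.2 and 87.9 CPM in cultures labelled Spo11KO (log2 1.83, SE 0.0642, edgeR adjusted p 8.32e-26). Its rise was smaller in Stra8KO by 1.10 (log2 -1.10, SE 0.108, edgeR adjusted p 7.27e-11). Sox3 and Sox2, which belong to the same subgroup, therefore had interactions of opposite sign.

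Sox12, the third SoxC gene, rose by 0.22 (log2, SE 0.0565, edgeR adjusted p 0.00176) in Stra8KO and by 1.27 (log2, SE 0.0523, edgeR adjusted p 2.19e-23) in the other genotype, with an interaction of -1.05 (log2, SE 0.0772, edgeR adjusted p 2.04e-14). Sox13, of SoxD, fell by 0.55 (log2, SE 0.068, edgeR adjusted p 6.8e-09) in Stra8KO, by 1.93 (log2, SE 0.0588, edgeR adjusted p 5.98e-28) in the other genotype, with an interaction of 1.38 (log2, SE 0.0907, edgeR adjusted p 7.49e-16). The other SoxD genes, Sox5 and Sox6, did not pass the test in either NRRA comparison, with log2 values between -0.51 and -0.15. The testis gene Sox30 was at -0.16 (log2, SE 0.167, edgeR adjusted p 0.48) in Stra8KO and rose by 0.66 (log2, SE 0.131, edgeR adjusted p 4.48e-05) in the other genotype. Sox21, of SoxB2, had 17 and 18 counts in Stra8KO NRRA and at most 6 in any other library. It passed the filter on low counts only through that group, so its NRRA value in Stra8KO is given without a test (log2 2.28, SE 0.598). Sox15, of SoxG, was at -0.32 (log2, SE 0.365, edgeR adjusted p 0.523) and -0.46 (log2, SE 0.261, edgeR adjusted p 0.145).

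Summed over the 20 family genes, the level in Stra8KO was 122.6 ± 2.85 with Veh and 121.9 ± 2.92 with NRRA, and in cultures labelled Spo11KO it was 141.1 ± 5.04 with Veh and 143.2 ± 1.14 with NRRA (CPM per kb, SD, n = 2). In each genotype the Veh and NRRA sums differed by less than the SD of the Veh libraries, while the make-up differed. Sox7 made up 7.18% of the Stra8KO sum with Veh and 0.329% with NRRA, and 1.81% and 0.13% of the sums labelled Spo11KO. Sox2 made up 1.73% and 5.76% in Stra8KO, and 0.937% and 0.16% in the other genotype. Sox4 held 49.2% and 50.7%, and 45.1% and 33.7%. The 3 SoxC genes together held between 55.9% and 66.5% in every library, and the 3 SoxF genes between 0.438% and 7.73%.

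**Figure D4:**
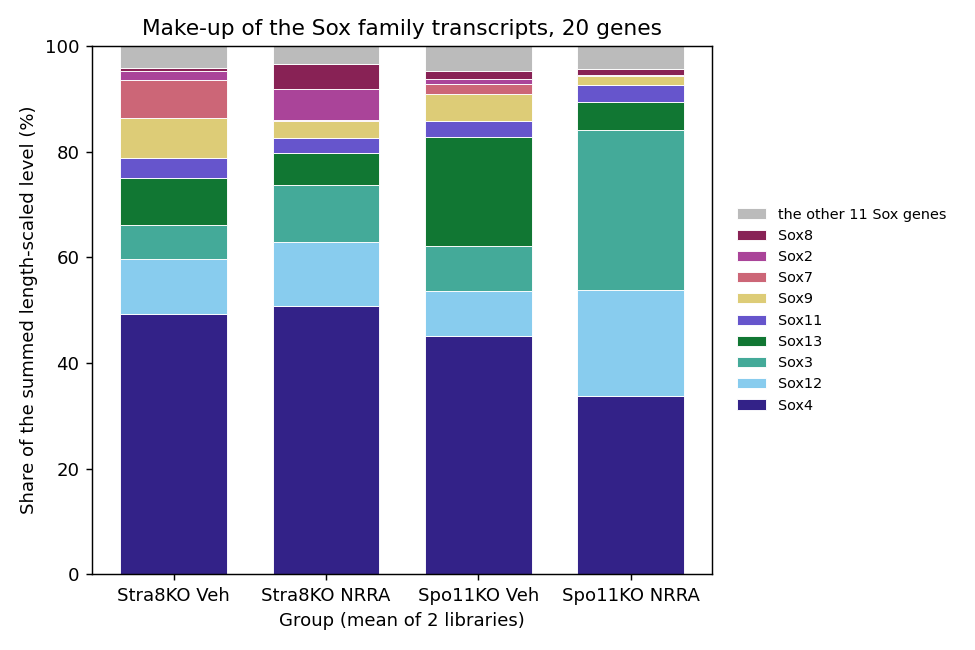
Share of each gene in the summed length-scaled level of the 20 Sox family genes, in percent (vertical axis), as stacked bars of the mean of 2 libraries for each of the 4 groups (horizontal axis). Sox4 is the largest segment in every group, at 33.7% to 50.7%, the Sox7 segment goes from 7.18% and 1.81% in Veh to 0.329% and 0.13% in NRRA, and Sox3 reaches 30.3% in Spo11KO NRRA.

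The genes most like Sox7 were sought by the smallest Euclidean distance between centred log2 CPM values over the 8 libraries, among 13049 candidate genes. They were Cck, which encodes cholecystokinin (distance 0.448, Pearson r 0.997), Disp2, a Dispatched homologue (0.788, r 0.998), Mmp10, a matrix metalloproteinase (0.876, r 0.994), Lce1g, a cornified envelope gene (0.916, r 0.993), and Il33, a cytokine (0.989, r 0.993). The 8 points form 4 groups and share their libraries, so the likeness is a description. In Stra8KO, Cck was at 70.9 ± 0.597 CPM with Veh and 3.91 ± 0.41 CPM with NRRA, and in cultures labelled Spo11KO at 26.3 ± 2.27 CPM with Veh and 1.86 ± 0.171 CPM with NRRA (SD, n = 2). The fitted NRRA differences of these 5 genes ran from -4.84 to -3.61 (log2) in Stra8KO and from -4.61 to -3.26 (log2) in cultures labelled Spo11KO, and all were higher in Stra8KO Veh than in Spo11KO Veh, by 1.05 to 1.66 (log2). No other Sox gene was among them.

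**Figure D5:**
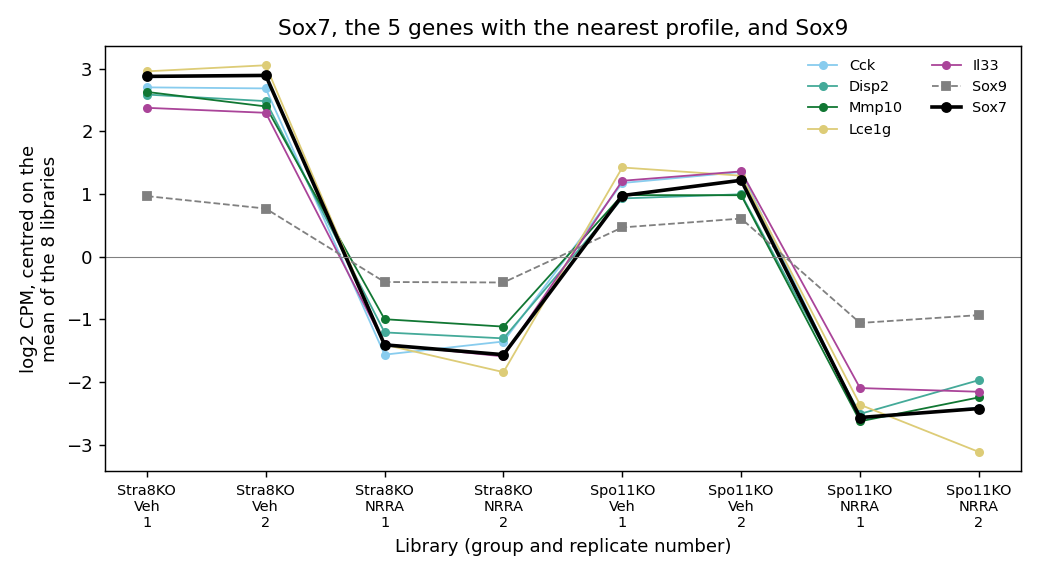
Log2 CPM centred on the mean of the 8 libraries (vertical axis) in each library (horizontal axis) for Sox7, shown as the thick black line, for the 5 genes with the nearest profile, and for Sox9, shown as a dashed grey line. Sox7 is at 2.88 and 2.89 in Stra8KO Veh and at -2.57 and -2.43 in Spo11KO NRRA, and Sox9 follows the same order of groups between 0.967 and -1.06.

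For the other members, the nearest gene by the same measure was Elavl2 for Sox18 (distance 0.783), Spred1, an inhibitor of ERK signalling, for Sox9 (0.156), Cops5, a COP9 signalosome subunit, for Sox4 (0.105), Pcnx for Sox11 (0.12) and the collagen chain gene Col6a6 for Sox2 (1.40). The distance for Sox2 was the largest of these, so that no candidate came as close to it. Among the members themselves, Sox4 and Sox11 were nearest (0.732), although their r was -0.269, since both varied little.

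Genes known to respond to retinoic acid were counted as a reference for the treatment. All 9 listed genes were higher in NRRA in each genotype, with a median of 3.45 (log2) in Stra8KO and 2.46 (log2) in the other genotype. Among all tested genes, 21.4% and 24.7% were called higher, respectively. The receptor gene Rarb rose by 5.46 (log2, SE 0.189, edgeR adjusted p 5.17e-26), Kit, a receptor tyrosine kinase gene, by 5.09 (log2, SE 0.071, edgeR adjusted p 6.37e-40) and Cyp26a1, which breaks retinoic acid down, by 4.64 (log2, SE 0.27, edgeR adjusted p 2.52e-18) in Stra8KO. This list was assembled with earlier results of these libraries known. NRRA also differed from Veh in nutrients, and no library had retinoic acid or nutrient restriction alone, so that the contributions of the 2 to any Sox value cannot be told apart.

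The other marker lists describe the mixture beside which the Sox values stand. Of 16 fibroblast markers, 9 were higher and 6 lower in Stra8KO NRRA, while the other genotype had 9 higher and 7 lower. The shares of all tested genes were 21.4% higher and 20.1% lower in Stra8KO, and 24.7% and 25.5% in the other genotype. The collagen genes Col3a1 and Col1a1 rose by 1.78 (log2, SE 0.0333, edgeR adjusted p 2.57e-34) and 1.46 (log2, SE 0.0302, edgeR adjusted p 1.01e-33) in Stra8KO, and S100a4 fell by 2.17 (log2, SE 0.203, edgeR adjusted p 4.93e-12). Of 8 germ cell markers, 6 and 7 were higher and none lower, with Piwil2 up by 0.67 (log2, SE 0.0435, edgeR adjusted p 8.88e-17), Tdrd1 by 0.47 (log2, SE 0.0566, edgeR adjusted p 4.02e-09) and Rbm46 by 0.43 (log2, SE 0.0801, edgeR adjusted p 1.82e-05) in Stra8KO. No marker of either list was at 0 in all libraries.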

How the data were processed

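Poly(A) RNA was sequenced in 8 libraries of SSC culture, 2 for each of 4 groups. The authors deposited raw read counts per Ensembl gene. Per the submitters' processing notes, reads were demultiplexed with bcl2fastq, with STAR 2.6.1c, featureCounts 1.6.4 and the build mm10 also named. The annotation release, the strand setting and the handling of multimapping reads are not given in the sources used here, so counts of near-identical or antisense genes are uncertain.

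From the deposited counts, filterByExpr of edgeR 4.0.16 (R 4.3.3) kept 20588 genes with 99.88% of the reads. After TMM scaling, all 8 libraries entered 1 quasi-likelihood model of the group means with robust dispersions (common biological coefficient of variation 3.39%). The quasi-likelihood F test was two-sided, with Benjamini-Hochberg adjustment over all tested genes, and the threshold for a call was 0.05. The SE was derived from the log2 fold change and the square root of F. In simulated data made for NRRA against Veh in Stra8KO over 20588 genes, 97.5% of 200 changed genes were recovered and 0.0354% of the others were called. Every simulated gene had the common coefficient of variation, the changed genes were drawn above a count limit, and the others did not differ. These rates therefore do not cover genes with few counts or a larger spread, or data in which many genes change. Library totals were 20960794 to 27038868 counts, and floors of 3 counts cover counting error only.

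Gene positions and lengths came from GENCODE M21 (GRCm38), which held 99.67% of the identifiers. The members and gene lists were chosen with earlier results of these data known. The text names all members, all other Sox genes, Stra8 and Spo11, up to 3 called genes per list with the largest absolute log2 fold change in NRRA against Veh in Stra8KO, the 5 genes nearest to Sox7 and the nearest gene of each other member. Candidates for likeness had an average log2 CPM of at least 1, with a prior count of 2, and no predicted-gene name. The lists were retinoic acid response, fibroblast, germ cell, endothelial, endoderm, cartilage, Sertoli cell, pluripotency and neuron genes, and the other Sox genes. Alternatives were DESeq2 size factors, total counts, no filter beyond 1 count, the Wald test of DESeq2 1.42.0 (the study names DESeq2 without the test), a replicate block, only the 4 libraries of a comparison, each library left out in turn, and the longest transcript as gene length. Sums of fibroblast and Sertoli cell markers without their dominant genes were added after seeing the data.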

Additional observations from a re-analysis of the deposited data

Results flagged for a closer look

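In 8 Sox genes the NRRA effect in Stra8KO differed from that in cultures labelled Spo11KO by the interaction test of edgeR at an adjusted p under 0.05. Sox7 was left out, since it was chosen on its NRRA values. Tested were the 5 other members with enough counts and 10 further Sox genes. Sox21 is among the 10 but passed the filter on low counts only through Stra8KO NRRA, so its value, which was not called, is a description. Of all tested genes, 14.6% were called with a more positive NRRA effect in Stra8KO and 10.1% with a lower one. The 8 genes are grouped below by the sign of the effect in each genotype.

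The effects had opposite signs, with libraries that did not overlap, in Sox2 (difference 4.26, log2) and Sox8 (3.71, log2). One genotype showed a fitted value near 0 and the other a larger one in Sox4 (difference 0.43, log2), Sox11 (-0.49, log2) and Sox30 (-0.82, log2). The effects shared a sign but differed in size in Sox3 (-1.10, log2), Sox12 (-1.05, log2) and Sox13 (1.38, log2). The direction of all 8 was kept under each alternative that was run. Each difference is between these 2 sets of cultures.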

How the results depend on the processing

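In the comparisons with a test, 7 recomputed log2 differences of members lost a call (Sox2 once and Sox11 6 times, both in Veh) and 1 gained one (Sox4 in Veh). In those without a test, 13 moved by more than their SE. Near 0, the NRRA value went to -0.02 (log2) for Sox4 in Stra8KO and -0.01 for Sox11 in the other genotype with 1 library left out. Between the genotypes in Veh, leaving out Stra8KO Veh replicate 2 gave 0.48 (log2) for Sox2 and 0.18 (log2) for Sox11, in place of 0.67 and 0.16. The NRRA difference of Sox7 stayed between -4.53 and -4.37 (log2) in Stra8KO and between -3.87 and -3.64 (log2) in cultures labelled Spo11KO when 1 library was left out, and between -4.49 and -4.45 and between -3.76 and -3.66 under the other alternatives. A fit without 1 library leaves an arm with a lone library, which is assumed to vary like the other groups.

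Among the other Sox genes the sign changed for 5, none of them past the threshold in that comparison. The values of Sox21 are descriptions, since it passed the filter on low counts only through Stra8KO NRRA. Sox12 in Veh, between the genotypes, went to -0.0143 (log2) with total counts. Sox10 after NRRA, between the genotypes, went to -0.00998 with DESeq2 size factors, -0.20 with total counts, -0.0419 with no filter beyond 1 count, -0.0177 with the DESeq2 Wald test and -0.061 with only the 4 libraries of the comparison, and ran from -0.21 to 0.24 when 1 library was left out. With 1 library left out, Sox13 after NRRA ran from -0.083 to 0.0134, Sox21 in Veh from -0.48 to 2.15, the Sox15 interaction from -0.26 to 0.44 and the Sox21 interaction from -0.12 to 2.50. The cause of these shifts was not tested.

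The correlation of same-numbered libraries' deviations over all tested genes was between -0.027 and 0.056. Genes with few counts entered it, and their counting error lowers such a correlation. These values therefore cannot decide whether the replicate numbers of the labels pair the libraries. With the replicate block, the same 3 members, Sox2, Sox4 and Sox11, were called for the interaction, and all genes called for it were 5075 in place of 5094. Between the genotypes, all genes called were 12743 in place of 12791 in Veh, and 13223 in place of 13234 after NRRA. Gene lengths from the longest transcript gave the same level per kilobase for the 6 tested members. Low counts limit Sox18, Sox21 and Sox17, the last at no more than 2 counts.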
